A study of Mus musculus with 10 samples.

Results

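The amyloid precursor protein family, its cutting enzymes, their adaptors and apolipoprotein E were examined in the mRNA of mouse cortical cultures given the blood transcription factor gene Gata1. The set was a list of 9 gene symbols: App, Aplp1 and Aplp2 (the precursor family), Bace1 (beta-secretase), Psen2 and Ncstn (gamma-secretase), Apbb1 and Apbb3 (adaptors) and Apoe. Of these, 8 had a row among the 40904 gene symbols of the tables, each with a single row, and all 8 were above a mean of 1 FPKM, as were 13740 genes in all. FPKM is a level per length: fragments per kilobase of transcript, relative to the mapped fragments of the library. Apbb3 had no row under its symbol and was not analysed here.

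The cells were cultured cortical neurons from ICR mouse embryos at embryonic day 14, collected at day 11 in vitro. One group received a control adeno-associated virus (AAV-Control) and the other a virus carrying Gata1 (AAV-Gata1), and nothing else in the labels separated them. Each had 1 mRNA library and 1 small RNA library, used here, out of 10 samples in the series. The chromatin samples, which number 6, were not analysed here. The promoter that drives Gata1 in the virus, and how many embryos were pooled, are not given in the labels.

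App encodes a single-pass membrane protein of neurons and other cells. Beta-secretase (BACE1) trims its outer part, and gamma-secretase, a membrane complex of a presenilin, nicastrin, APH1 and PEN2, then cuts within the membrane and frees the amyloid-beta peptide and an intracellular tail. Cutting by alpha-secretases such as ADAM10 falls inside the amyloid-beta stretch and prevents its release. APLP1 and APLP2 are processed by the same kinds of enzyme but lack the amyloid-beta stretch. The intracellular tails bind adaptors such as FE65, the product of Apbb1. Apolipoprotein E carries lipids between brain cells, is made in the brain mainly by astrocytes and microglia, and binds amyloid-beta.

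With 1 library per condition there was no spread between samples. None of the mRNA differences below was tested or has a replicate check, and how deeply the mRNA was sequenced is unknown. Gata1 was listed at 0 FPKM in AAV-Control and stood at 2.07 FPKM in AAV-Gata1, in keeping with the labelled deliveries. The cultures held several cell types. Of 15 pan-neuronal markers, 14 were compared and summed to 1419 FPKM in AAV-Control and 1375 FPKM in AAV-Gata1. The 11 astrocyte markers compared summed to 2553 and 2538 FPKM, among them Gfap at 887 and 897 FPKM. The 15 microglia markers compared, of 17, summed to 753 and 889 FPKM, while the microglia markers P2ry12 and Tmem119 were under 0.2 FPKM in both libraries. Over all genes compared 54.7% were lower in AAV-Gata1. Of oligodendrocyte lineage markers 8 of 11 were lower (median −0.075, furthest Enpp2, Gpr17 and Sox10). Of 9 pericyte and fibroblast markers 4 were compared, the others being under the minimum of 1 FPKM. Acta2 (76.4 and 60.7 FPKM) was at least 1.2-fold lower, where 3.98% of all genes were. Dcn (8.43 and 7.62 FPKM) was lower, Pdgfrb was nearly level (13.60 and 13.57 FPKM) and Cspg4, also in the oligodendrocyte lineage list, was slightly higher (3.67 and 3.74 FPKM). Of 6 endothelial markers 3 were compared. Slco1a4 and Kdr were lower, while Egfl7, the furthest from equal levels, was higher (4.46 and 5.08 FPKM). The endothelial Cldn5 was listed at 0 in AAV-Control. In such bulk samples, fewer cells of a type and less RNA per cell cannot be told apart.

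The delivered factor binds the letters GATA preceded by A or T and followed by A or G, and such hexamers were looked for on both strands in the 250 bases before each annotated start. RefSeq windows (build GRCm38.p6) were found for 7 of the 8 genes, 12 windows in all. Bace1 had none. The 5 windows below are that of App, the gene closest to equal in the libraries, the outer of 2 of Psen2, the gene furthest apart, and all 3 of Apoe, the most abundant. The inner Psen2 window held none of the motifs searched. The middle and innermost Apoe windows overlap. Capitals mark these hexamers, the GC box GGGCGG and the TATA box TATAAA, each on either strand.
App, chr16:85173708-85173957, minus strand: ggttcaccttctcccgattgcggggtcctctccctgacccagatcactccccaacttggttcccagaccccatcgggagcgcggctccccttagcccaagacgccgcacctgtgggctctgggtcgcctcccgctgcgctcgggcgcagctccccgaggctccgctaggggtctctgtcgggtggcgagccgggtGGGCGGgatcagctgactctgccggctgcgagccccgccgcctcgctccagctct
Psen2, outermost start, chr1:180256301-180256550, minus strand: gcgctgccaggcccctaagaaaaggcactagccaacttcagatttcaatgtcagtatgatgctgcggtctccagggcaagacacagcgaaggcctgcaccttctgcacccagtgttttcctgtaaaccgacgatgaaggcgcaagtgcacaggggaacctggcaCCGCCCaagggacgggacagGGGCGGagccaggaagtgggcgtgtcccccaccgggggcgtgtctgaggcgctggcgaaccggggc
Apoe, outermost start, chr7:19699189-19699438, minus strand: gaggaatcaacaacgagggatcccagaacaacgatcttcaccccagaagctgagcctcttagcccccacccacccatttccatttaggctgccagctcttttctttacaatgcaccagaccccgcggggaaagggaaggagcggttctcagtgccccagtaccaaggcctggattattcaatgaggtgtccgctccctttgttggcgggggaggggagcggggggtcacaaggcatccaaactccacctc
Apoe, middle start, chr7:19698622-19698871, minus strand: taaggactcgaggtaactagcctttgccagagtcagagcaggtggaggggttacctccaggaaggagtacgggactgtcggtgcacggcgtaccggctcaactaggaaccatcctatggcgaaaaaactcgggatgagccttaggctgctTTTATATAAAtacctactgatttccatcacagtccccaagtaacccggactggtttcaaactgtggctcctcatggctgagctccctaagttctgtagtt
Apoe, innermost start, chr7:19698399-19698648, minus strand: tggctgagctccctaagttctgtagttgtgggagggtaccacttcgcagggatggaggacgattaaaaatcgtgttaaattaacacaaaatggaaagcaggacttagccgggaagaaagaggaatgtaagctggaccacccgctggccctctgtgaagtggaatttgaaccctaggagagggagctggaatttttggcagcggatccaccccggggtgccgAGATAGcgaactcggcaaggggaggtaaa
The middle Apoe window was the one window of the set with a TATA box, in 2 overlapping matches on opposite strands, where 12.4% of all windows had one. The innermost Apoe window held the one GATA hexamer found in the set, AGATAG, so 1 of 12 windows had a match. Over all 32851 windows of the same length 26.5% held a match. Windows with a GC box numbered 5 of 12 in the set and 32.7% overall. Of the 12 windows, the App window had the highest G and C content, at 70.8%, against a median of 52.4% over all windows. Across the 9858 genes compared that had a window, the median log2 ratio was −0.0099 for the 1900 with a GATA hexamer and −0.013 for the rest. A match is a description of these letters only, and binding was not measured here.

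The precursor genes were among the more abundant mRNAs of the cultures, and App was at nearly the same level in both libraries. App stood at 245.3 FPKM in AAV-Control and 245.2 FPKM in AAV-Gata1, ranking 268th and 265th of all symbols. Aplp2, the ubiquitous relative, stood at 163 and 154 FPKM. Aplp1, the relative found mostly in neurons, stood at 110 and 106 FPKM. App was thus level to within 0.1% while both relatives were lower in AAV-Gata1, Aplp2 by 5.32% and Aplp1 by 3.599%. The log2 ratio of AAV-Gata1 over AAV-Control, taken here and below after adding 1 FPKM to both values, was −0.00060 for App, −0.078 for Aplp2 and −0.052 for Aplp1. App turned to 0.012 and 0.014 when the libraries were centred or scaled on all genes, so it has no direction. Such a rescaling shifts all genes by nearly the same small amount, too little to turn Aplp1 or Aplp2. That they stayed below 0 therefore gives them no direction either.

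The make-up of the family moved little. App made up 47.3% of the summed FPKM of the family in AAV-Control and 48.5% in AAV-Gata1, Aplp2 31.4% and 30.4%, and Aplp1 21.3% and 21.0%. On this per-length scale there were 1.51 App mRNAs for each Aplp2 mRNA in AAV-Control and 1.59 in AAV-Gata1. The ratio of App to Aplp1 was 2.22 and 2.30. The family as a whole summed to 518 and 505 FPKM, a value 2.46% lower in AAV-Gata1. Of the 528 genes within 2-fold of the level of App, 98.9% were further from equal levels than App was. For Aplp2 29.9% of 871 such genes were further, and for Aplp1 49.9% of 1400, which puts Aplp1 in the middle of its level class.

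**Figure D1:**
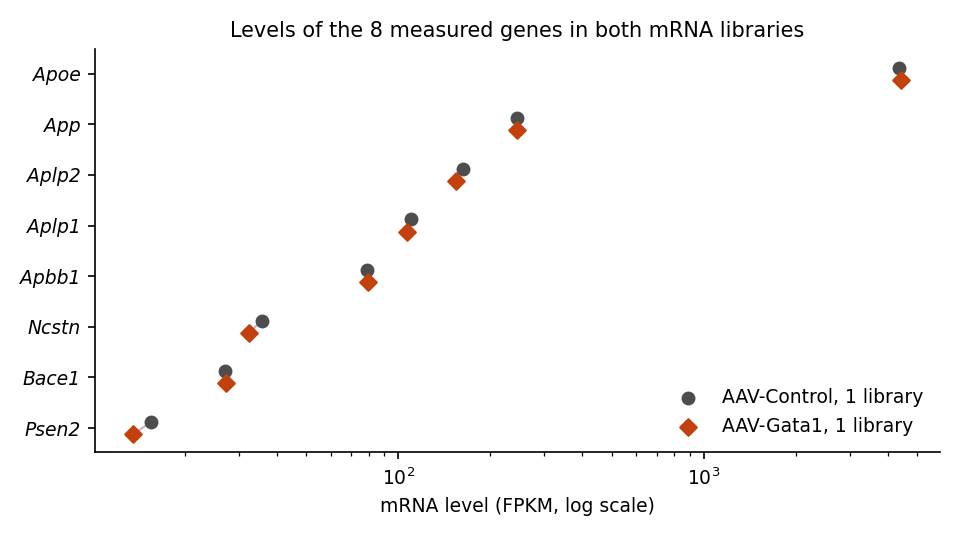
FPKM (log axis) of the 8 measured genes in the AAV-Control library (circles) and the AAV-Gata1 library (diamonds), 1 library each and so without error bars. The order of the genes is the same in both libraries, from Apoe at 4345 and 4432 FPKM to Psen2 at 15.5 and 13.6 FPKM.

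The level order of the set was Apoe, App, Aplp2, Aplp1, Apbb1, Ncstn, Bace1 and Psen2 in both libraries. Without replicates it cannot be said which neighbours differ beyond their spread. Among the genes nearest to App over the 2 libraries, by distance between their log2 values, were Pygb, the brain form of glycogen phosphorylase (distance 0.013, at 243 and 244 FPKM), and Capns1, the small calpain subunit (distance 0.025, at 248 and 242 FPKM).

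Bace1, the beta-secretase gene, stood at 27.01 FPKM in AAV-Control and 27.16 FPKM in AAV-Gata1, a log2 ratio of 0.0073. App mRNA exceeded Bace1 mRNA by a factor of 9.08 in AAV-Control and 9.03 in AAV-Gata1, so these mRNAs kept nearly the same ratio. Neither protein was measured here. Among the other secretase genes Adam10, the main neuronal alpha-secretase, stood at 35.7 and 36.3 FPKM, giving 1.32 and 1.34 Adam10 mRNAs for each Bace1 mRNA. Adam17, a second alpha-secretase, stood at 15.99 and 17.73 FPKM (log2 ratio 0.14). Adam9, a further metalloprotease, stood at 22.8 and 21.6 FPKM, and Bace2, the close relative of Bace1, at 18.99 and 18.30 FPKM. Of these 5 genes 3 were higher and 2 lower, where 54.7% of all genes were lower. Their median log2 ratio was 0.0073 against −0.013 over all genes compared. None was 1.2-fold apart.

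Of 10 listed substrates of BACE1 other than App, 8 were lower in AAV-Gata1 (7 once centred on all genes), where 54.7% of all genes were. Their median log2 ratio was −0.092, against −0.013 over all genes, and none was 1.2-fold apart. Those furthest from equal levels were Sez6l, a membrane protein of neurons, at 19.4 and 16.6 FPKM, the growth factor gene Nrg3 at 5.80 and 4.96 FPKM, the sodium channel subunit gene Scn2b at 3.71 and 3.14 FPKM and the Notch ligand gene Jag1 at 2.35 and 2.03 FPKM. Scn2b and Jag1 were near the minimum level. At a minimum mean of 5 FPKM the median was −0.039. The substrates are mostly neuronal genes, and of the 14 pan-neuronal markers 13 were lower too (median −0.067, furthest Eno2, Elavl3 and Syt1). Their part in these values was not tested.

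Gamma-secretase held the largest differences of the set. Psen2, one of the presenilins that form the active site, stood at 15.5 FPKM in AAV-Control and 13.6 FPKM in AAV-Gata1, 12.4% lower, with a log2 ratio of −0.18. Ncstn, which encodes nicastrin, the subunit that receives substrates, stood at 35.7 and 32.3 FPKM, 9.62% lower, with a log2 ratio of −0.14. Of 5657 genes within 2-fold of the level of Psen2, 12.8% were further from equal levels, and of 4405 genes near Ncstn, 13.7% were. Psen2 stood at the 8.68th and Ncstn at the 13.0th percentile of the log2 ratios of all genes compared.

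The PEN2 and APH1 genes of the complex mostly stood nearer to equal levels. Psenen, which encodes PEN2, stood at 127.9 and 127.8 FPKM, and Aph1a, the main APH1 gene here, at 59.9 and 59.3 FPKM. Aph1b stood at 11.77 and 11.86 FPKM, and Aph1c, near the minimum, at 2.60 and 2.06 FPKM. Psen2 and Ncstn mRNA were thus lower beside nearly level Psenen and Aph1a mRNA. The ratio of Psenen to Ncstn was 3.58 and 3.96, and that of Aph1a to Ncstn 1.68 and 1.83. Of 6 subunit genes compared 5 were lower (4 with the libraries centred or scaled on all genes, where Psenen turned), beside 54.7% of all genes, and 2 of them (Psenen and Aph1a) by under 0.02 on the log2 scale. The median was −0.078, and −0.015 at a minimum mean of 5 FPKM, which left out Aph1c and lies close to the −0.013 of all genes. None was 1.2-fold apart, except Aph1c when the added 1 FPKM was reduced or left out. Centring the libraries on all genes put Psen2 at −0.17 and Ncstn at −0.13, and a shift that small could not have turned either. Aph1b and Aph1c are close copies of each other, between which reads may be split.

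**Figure D2:**
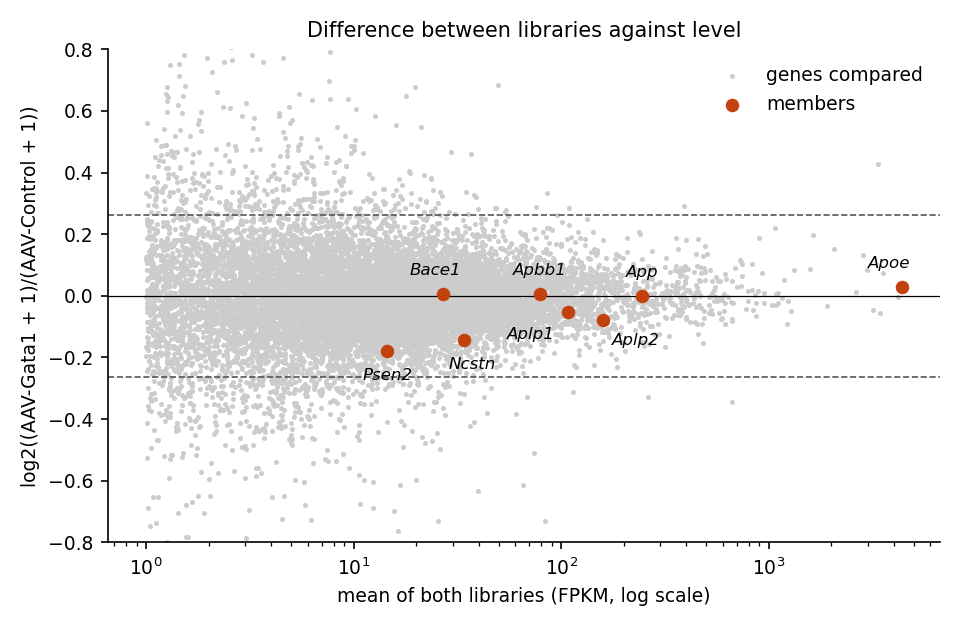
Log2 ratio of AAV-Gata1 over AAV-Control (after adding 1 FPKM) against the mean FPKM of both libraries (log axis) for the 13740 genes compared (grey; 101 genes beyond the axis range are not drawn) and the 8 measured members (orange). Dashed lines mark 1.2-fold; all 8 members lie between them, with Psen2 (−0.18) and Ncstn (−0.14) lowest.

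Apbb1, whose product FE65 links the tail of the precursor to the nucleus, stood at 78.9 FPKM in AAV-Control and 79.3 FPKM in AAV-Gata1, a log2 ratio of 0.0065. It was level within 0.5%, and 93.8% of the 2087 genes near its level were further from equal levels. Its relative Apbb2, which is no member, stood at 14.4 and 7.04 FPKM, so the ratio of Apbb1 to Apbb2 was 5.48 in AAV-Control and 11.3 in AAV-Gata1. The Apbb2 span overlaps 2 other RefSeq genes, Nsun7 and a noncoding gene. Nothing in the sources used here says whether fragments were assigned by strand. Of 7 adaptor genes compared 6 were lower, where 54.7% of all genes were, at a median of −0.070. Apbb2 alone was at least 1.2-fold lower, where 3.98% of all genes were. Its FPKM was 51.2% lower, and its log2 ratio was −0.94, just short of 2-fold after adding 1 FPKM.

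The remaining adaptors differed little. The X11 genes Apba1, Apba2 and Apba3 stood at 18.6 and 17.4, at 33.3 and 32.7 and at 12.3 and 11.2 FPKM. Mapk8ip1, the JIP1 scaffold gene, stood at 96.0 and 92.7 FPKM and Dab1, the reelin pathway adaptor gene, at 40.3 and 38.4 FPKM. All 5 were lower in AAV-Gata1, with log2 ratios between −0.12 and −0.025.

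Apoe had the highest FPKM of all symbols in both libraries. It stood at 4345 FPKM in AAV-Control and 4432 FPKM in AAV-Gata1, which is 0.912% and 0.930% of the summed FPKM. Apoe was 2.01% higher in AAV-Gata1, with a log2 ratio of 0.029 (up to 0.043 under the settings tried). None of these settings could have turned it, since the added FPKM does not change a sign and both scalings raise every ratio. They therefore say nothing on whether this small difference would recur. It exceeded App by a factor of 17.7 in AAV-Control and 18.1 in AAV-Gata1, and Clu, the other abundant apolipoprotein gene of astrocytes, by 4.01 and 4.08. The genes nearest to it were the metallothionein gene Mt1 (distance 0.089, at 4213 and 4203 FPKM), Dbi, an acyl-CoA binding protein gene (distance 0.44, at 3444 and 3628 FPKM), and Cst3, the cystatin C gene (distance 0.496, at 3514 and 3381 FPKM). So few genes reach this level that only 8 others were within 2-fold of it, of which 6 were further from equal levels.

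Markers of astrocytes and microglia, the main sources of Apoe in brain, are given beside it. Of all genes compared, 54.7% were lower in AAV-Gata1. Of 11 astrocyte markers 4 were higher and 7 lower (median log2 ratio −0.028, furthest Slc4a4, Fgfr3 and S100b). Of 15 microglia markers 15 were higher (median 0.22), 4 of them at least 1.2-fold, where 3.29% of all genes were, among them the protease gene Ctss (22.8 and 29.1 FPKM), the chemokine receptor gene Cx3cr1 (14.6 and 18.2 FPKM) and the lysozyme gene Lyz2 (68.2 and 83.5 FPKM). What either cell type contributes to the Apoe ratio of 0.029 was not tested.

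Genes that work with apolipoprotein E mostly stood close to equal levels, with Lpl the main exception (log2 ratio 0.21). Of 13 listed partners and lipid transport genes 12 were compared, 5 higher and 7 lower, where 54.7% of all genes were lower. The median was −0.023. The furthest were Lpl, the lipoprotein lipase gene that microglia also express (75.9 and 87.7 FPKM), and Abcg1, a sterol exporter gene (9.94 and 10.7 FPKM). The transporter gene Abca7 stood at 1.63 and 1.53 FPKM, and Lrp1, a large receptor for apolipoprotein E and the precursor, at 49.3 and 47.3 FPKM. Apod, a lipid carrier gene, was under the minimum (0.267 and 0.304 FPKM) and not compared.

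Of 8 listed genes linked to the degradation of amyloid-beta, 5 were higher in AAV-Gata1 and 3 lower, where 54.7% of all genes were lower. The median was 0.062, against −0.013 over all genes, and none was 1.2-fold apart. The lysosomal proteases Ctsd, at 990.4 and 1154 FPKM, and Ctsb, at 306 and 334 FPKM, and the plasminogen activator gene Plau, at 32.3 and 36.2 FPKM, were furthest on the higher side. All 3 are also expressed by microglia, whose markers were higher, as given above, and the part of those cells was not tested. Ece1 and Ece2, the endothelin-converting enzyme genes, stood at 24.47 and 25.999 and at 16.03 and 16.51 FPKM. On the lower side were Ide, the insulin-degrading enzyme gene (27.2 and 24.6 FPKM), the neprilysin gene Mme (2.097 and 1.959 FPKM) and Plat (67.9 and 66.1 FPKM).

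Sorting and interaction partners of the precursor showed no common direction, with 8 of 18 higher and 10 lower, at a median of −0.010. Of all genes compared, 54.7% were lower. Once the libraries were centred on all genes, 8 of the 18 were lower. Gga3, an adaptor that carries BACE1 to lysosomes, stood at 10.8 and 12.9 FPKM, and Rtn4, a reticulon that binds BACE1, at 174 and 192 FPKM. The sorting receptor gene Sorl1 stood at 31.3 and 29.3 FPKM and Lrp10 at 23.3 and 22.0 FPKM. None of the 18 was 1.2-fold apart.

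**Figure D3:**
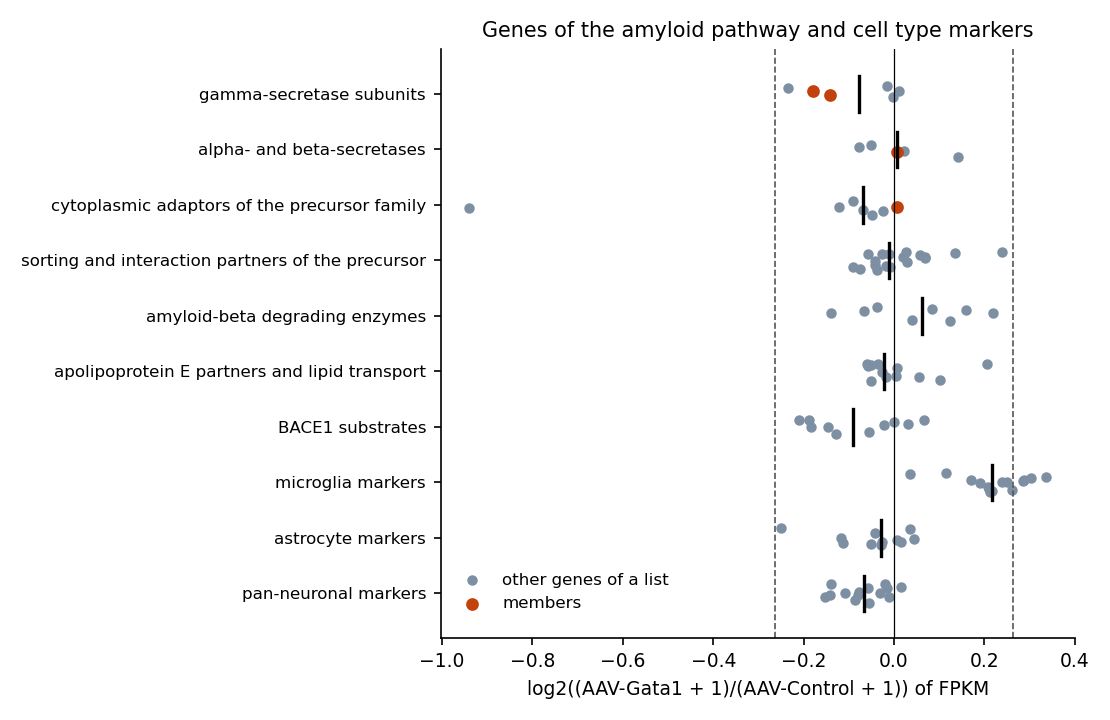
Log2 ratio of AAV-Gata1 over AAV-Control (after adding 1 FPKM) of each compared gene in the 7 pathway lists and 3 marker lists, with members in orange and other genes in grey; black bars are list medians and dashed lines mark 1.2-fold. Gamma-secretase subunits (median −0.078) lie left of 0 in 5 of 6 genes (4 once centred on all genes), where 54.7% of all genes were lower. The list labelled amyloid-beta degrading enzymes has a median right of 0 (0.062), while Apbb2 lies apart at −0.94.

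Counted by size, none of the 8 was at least 2-fold higher or lower, where 0.233% and 0.284% of all 13740 genes were. None was at least 1.2-fold higher or lower either, where 3.29% and 3.98% of all genes were. Of the 8 members 5 were lower in AAV-Gata1, and with App at equal levels that count was 4 once the libraries were centred. Over all genes 54.7% were lower. The members' median log2 ratio was −0.026, with single values from −0.18 to 0.029, beside a median of −0.013 over all genes. Of 61 other compared genes in the pathway lists, 38 were lower, at a median of −0.023. A share near the background is no result about the set.

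Some of the values rest on shared ground. By the RefSeq table, 5 of the 8 genes overlap another gene's span, where fragments may be assigned to either. Ncstn overlaps the coatomer gene Copa and Bace1 overlaps Rnf214, both protein-coding neighbours, while App, Psen2 and Aplp2 overlap noncoding or pseudogene entries. Aplp1, Apbb1 and Apoe overlap none.

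The small RNA libraries measured microRNAs that earlier work on other systems reported to act on App or Bace1 mRNA. Target sites were not searched, and no action on either mRNA was measured here. The 16 listed microRNAs were all found, 14 of them with a mature sequence from RefSeq (GRCm38.p6). Those shown were chosen because several share a seed, the stretch from base 2 to base 8 that pairs with targets, given in capitals, or because they passed the counting interval described next.
miR-29a-3p: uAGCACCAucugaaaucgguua
miR-29b-3p: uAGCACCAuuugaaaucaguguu
miR-29c-3p: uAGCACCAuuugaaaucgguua
miR-195a-5p: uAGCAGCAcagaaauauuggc
miR-16-5p: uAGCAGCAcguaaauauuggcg
miR-107-3p: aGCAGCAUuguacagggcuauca
miR-298-5p: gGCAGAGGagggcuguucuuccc
miR-17-5p: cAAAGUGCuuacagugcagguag
miR-20a-5p: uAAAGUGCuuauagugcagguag
miR-106b-5p: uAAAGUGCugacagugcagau
miR-101a-3p: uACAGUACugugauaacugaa
miR-101b-3p: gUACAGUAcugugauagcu
The 3 miR-29 microRNAs share the seed AGCACCA, miR-16-5p and miR-195a-5p share AGCAGCA, and miR-17-5p, miR-20a-5p and miR-106b-5p share AAAGUGC. The sequences of miR-101a-3p and miR-101b-3p begin 1 base apart, so that their seeds, ACAGUAC and UACAGUA, differ by a shift. Reads of near-identical microRNAs may be assigned to either.

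Of 7 microRNAs reported to act on Bace1 with at least 20 reads, 6 were higher in AAV-Gata1 and 1 lower, where 314 of all 563 microRNAs were higher. The median log2 ratio was 0.14 for the list and 0.051 over all. Values are CPM, reads scaled to a common total over all rows of the table. Ratios carry exact (Clopper-Pearson, conditional binomial) 95% intervals on recovered reads that cover counting error only and compare 2 libraries, not conditions. The most abundant, the neuronal miR-124-3p, stood at 2667 CPM in AAV-Control and 3116 CPM in AAV-Gata1, a ratio of 1.17 (interval 1.15 to 1.18). In second place, miR-298-5p stood at 666 and 734 CPM (ratio 1.102, interval 1.07 to 1.13). At lower levels, miR-29a-3p stood at 182 and 198 CPM (ratio 1.08, interval 1.03 to 1.15) and miR-107-3p at 83.5 and 94.8 CPM (ratio 1.13, interval 1.05 to 1.23). Beside these higher values, miR-328-3p (338 and 330 CPM) and miR-195a-5p (30.2 and 31.9 CPM) had intervals that span 1.

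Of the miR-29 microRNAs that share a seed, miR-29a-3p and miR-29c-3p were higher, while miR-29b-3p had too few reads to compare. While miR-29a-3p carried nearly all reads of that seed, miR-29c-3p had 42 reads in AAV-Control and 62 in AAV-Gata1 (ratio 1.83, interval 1.21 to 2.77), and miR-29b-3p had 18 and 1 (ratio 0.069, interval 0.0016 to 0.435), under the minimum of 20 reads for a comparison. Bace1 mRNA itself differed by 0.53% between the libraries, as given above.

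Of 7 microRNAs reported to act on App with at least 20 reads, 2 were higher and 5 lower, where 248 of all 563 microRNAs were lower. Those with the seed AAAGUGC were lower: miR-17-5p stood at 57.3 and 49.7 CPM (ratio 0.867, interval 0.781 to 0.961), miR-106b-5p at 101 and 88.8 CPM (ratio 0.879, interval 0.814 to 0.950) and miR-20a-5p at 106 and 103 CPM, with an interval that spans 1. On the higher side, miR-16-5p stood at 1264 and 1309 CPM (ratio 1.04, interval 1.01 to 1.06, but a log2 ratio of −0.00076 once centred on all microRNAs) and miR-101a-3p at 387 and 404 CPM (ratio 1.04, interval 1.01 to 1.08). Its relative miR-101b-3p stood at 191 and 177 CPM (ratio 0.926, interval 0.877 to 0.979). The interval of miR-384-5p, at 96.9 and 95.2 CPM, spans 1, and miR-153-3p had 14 and 4 reads.

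Of the 14 listed microRNAs with at least 20 reads, 7 had an interval above 1 and 3 below, where 29.8% and 19.4% of all 563 microRNAs did. Such intervals narrow with more reads, and reads were not matched between the list and all 563. The counts are therefore no evidence of an excess in the list. With the ratios centred on their median (a log2 shift of 0.051) the listed counts were 4 above and 4 below, and those over all microRNAs 120 and 141 in place of 168 and 109. In the Bace1 list 6 of 7 log2 ratios then still lay above 0, from 0.027 for miR-195a-5p to 0.817 for miR-29c-3p, and miR-328-3p stood at −0.086. On the deposited scale the median log2 ratio of the App list was −0.035.

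**Figure D4:**
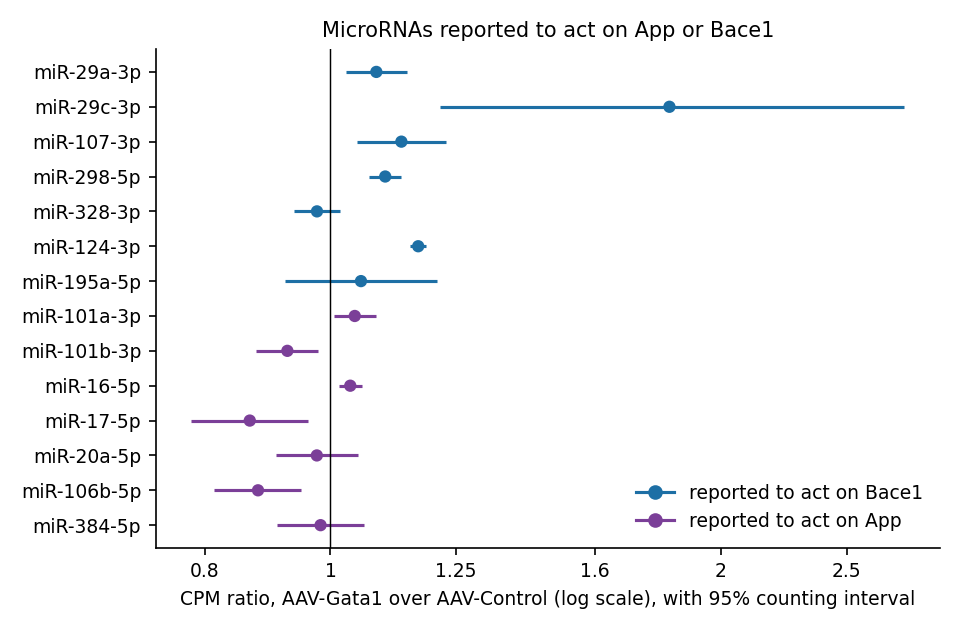
CPM ratio of AAV-Gata1 over AAV-Control (log axis) with its 95% counting interval for the 14 listed microRNAs with at least 20 reads, blue for those reported to act on Bace1 and purple for App; the line marks a ratio of 1. The miR-124-3p ratio of 1.17 has the narrowest interval and miR-29c-3p (1.83) the widest.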

How the data were processed

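The 2 mRNA tables hold FPKM per gene symbol as the authors deposited them, per the file headers. The submitters' processing notes list Cuffdiff 2.1.1, Cufflinks 2.1.1 and TopHat2 2.1.1 with the builds mm9 and mm10, and give none of them a role. Libraries were made with a stranded poly(A) kit, per the labels' protocols. Of 40993 rows, 6 with no symbol (0.0122% and 0.0113% of the FPKM) were left out, and 25 symbols had been turned into dates. The highest-mean row of each symbol was kept. Among 1274 genes under 0.1 FPKM in both libraries at most 43 shared a log2 ratio within 0.02, so no depth was recovered.

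The deposited small RNA values are CPM, called normalized counts per the file headers. All values above 0 (100% in both libraries) were whole multiples of 1 step within 0.0055 CPM, which gave 15632553 (AAV-Control) and 12644419 (AAV-Gata1) reads over all rows. The highest row per mature name was kept. On those reads the exact count interval lay above 1 for 168 and below 1 for 109 of 563 microRNAs. Since PCR copies molecules, intervals cover counting error only.

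Log2 ratios used 1 FPKM added to both values and a minimum mean of 1 FPKM, with Python 3.11.15, pandas 2.3.3 and scipy 1.17.1. Counting past 2-fold and 1.2-fold, and recovery of reads, were tested on simulated data. Those runs check the arithmetic only, since their spread was set and not taken from real libraries. With 1 library per group there was no test between conditions. Named were all members, all genes of pathway lists of up to 8, the 4 furthest from 0 in longer ones, the 3 furthest per marker list, all listed microRNAs, and the 3 genes nearest App and Apoe; Gfap, P2ry12, Tmem119, Cldn5, Clu and Apod were named after their values were seen. A few genes under this rule are not reported here and were left out of the list counts. Members and lists were chosen with earlier results of these data known. Alternatives varied the pseudocount, scaling, minimum and row choice.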

Additional observations from a re-analysis of the deposited data

How the results depend on the processing

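Under 5 alternatives of pseudocount, scaling and row choice, the log2 ratios of the 8 members moved by under 0.05, which was taken as no shift since no replicate spread exists. App alone changed sign, under 2 settings, around a value of −0.00060. Both settings raise every ratio by a similar small amount, which could turn no other member. That limit of 0.05 is larger than the ratios of App, Bace1, Apbb1 and Apoe themselves. No member passed 1.2-fold under the other pseudocounts or scalings. Row choice and minimum level could not change a member's ratio, since each had a single row and a mean above 5 FPKM. The median of the members was −0.026, and −0.052 without Apoe, an alternative added after the data were seen.

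Counts over all genes depended on the settings. At least 2-fold higher and lower were 32 and 39 genes, 60 and 70 with 0.1 FPKM added, and 18 and 23 at a minimum mean of 5 FPKM. At least 1.2-fold higher were 452 genes, 679 with 0.1 FPKM added, 683 with none added, 193 at the higher minimum and 850 with no minimum. At least 1.2-fold lower were 547, then 835 with none added, 240 at the higher minimum and 1032 with no minimum. In the gamma-secretase list 1 gene, Aph1c, was 1.2-fold apart with 0.1 FPKM or nothing added. With CPM ratios centred, miR-16-5p turned to a log2 ratio of −0.00076 and the listed microRNAs with an interval above 1 numbered 4. No paired analysis was possible because each group had 1 library. The unknown depth of the mRNA libraries and the lack of replicates limit all mRNA values, and no interval could be given for them.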

Other observations

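Beside Apoe, the 10 most abundant symbols held 3 metallothionein genes, which encode small metal-binding proteins, and both ferritin chain genes, which encode the iron store. They were named after their values were seen. Mt2 stood at 2882 FPKM in AAV-Control and 3877 FPKM in AAV-Gata1 (log2 ratio 0.43), a value 34.5% higher, which moved it from rank 7 to rank 3. Its neighbour Mt1 stood at 4213 and 4203 FPKM and the brain form Mt3 at 2704 and 2962 FPKM, so the 3 genes did not differ alike. The ferritin genes Fth1 (3247 and 3149 FPKM) and Ftl1 (2896 and 3067 FPKM) stood on opposite sides of equal levels. None of these differences was tested.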
